A study of Mus musculus with 6 samples.

Results

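Transcripts of the choroid plexus and of multiciliated ependymal cells were followed with 6 genes, Ttr, Aqp1, Clic6, Folr1, Kl and Foxj1, which were taken by name from the 26852 genes with a line in the deposited RNA-sequencing table. The list was drawn up from known genes of these cells. Each of the 6 genes had a line. Midbrains were dissected from E14.5 mouse embryos of the C57Bl/6 strain. In the mutant group (Lmx1b cKO) both Lmx1b alleles were floxed and deleted by Pitx3-Cre (Lmx1b fl/fl;Pitx3-Cre). The control group carried the same Cre driver with wildtype Lmx1b (Lmx1b wt/wt;Pitx3-Cre). Each group had 3 libraries of 2 pooled embryos each, from 4 litters per the study's methods. Pitx3-Cre is active in post-mitotic mesodiencephalic dopaminergic neurons, so the deletion was not directed at the cells whose genes are described here.

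The choroid plexus is a folded epithelium over a vascular stroma that forms in the brain ventricles outside the midbrain and secretes cerebrospinal fluid. Its epithelium makes the thyroxine carrier transthyretin (Ttr) in very large amounts and carries channels, transporters and receptors for water, ions, folate and hormones. Ependymal cells and choroid plexus epithelium form motile cilia under Foxj1, a forkhead transcription factor, together with factors of the RFX family that bind the X-box, and Foxj1 is also on in the embryonic floor plate. 

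Promoter sequences are shown because the ciliary and choroid plexus genes were compared for a part of the X-box, called the X-box core here. It was searched as the exact letters GTTGCC on either strand (GGCAAC on the other). The search covered the 250 bases before each RefSeq transcript start on GRCm38.p6. This core is shorter than a whole X-box, and a match does not show that a whole X-box is present. The core was present for 12 of the 29 motile axoneme genes with a promoter in the table (41.4%), for 4 of 9 regulators of multiciliation, for 4 of 9 other ependymal genes and for 2 of 23 other choroid plexus genes (8.70%). Over all genes of the table the share was 11.8% (3195 of 27025). Short lists varied widely, with 3 of 6 red cell genes and 0 of 9 roof plate genes, and no share was tested. Of the 6 genes, Aqp1 and Kl had a promoter in the table. Both are printed with 4 axoneme genes whose promoters held 2 cores each. Aqp1 (chr6:55336049-55336298, plus strand) held 1 core and Kl (chr5:150952357-150952606, plus strand) held none. The others are Gas8 (chr8:123518585-123518834, plus strand), Tekt1 (chr11:72361883-72362132, minus strand), Iqcg (chr16:33056187-33056436, minus strand) and Cfap44 (chr16:44394549-44394798, plus strand). Sequences run 5′ to 3′ and end next to the start, and capitals mark the cores.
Aqp1: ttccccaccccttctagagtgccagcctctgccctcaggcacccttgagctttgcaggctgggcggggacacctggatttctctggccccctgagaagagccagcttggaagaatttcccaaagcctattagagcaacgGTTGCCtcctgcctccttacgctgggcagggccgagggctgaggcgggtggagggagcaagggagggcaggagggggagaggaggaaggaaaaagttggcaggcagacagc
Kl: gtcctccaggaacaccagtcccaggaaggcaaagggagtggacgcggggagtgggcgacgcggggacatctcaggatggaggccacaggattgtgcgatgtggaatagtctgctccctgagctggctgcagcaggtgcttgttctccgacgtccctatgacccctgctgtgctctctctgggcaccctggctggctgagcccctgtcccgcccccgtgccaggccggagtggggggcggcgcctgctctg
Gas8: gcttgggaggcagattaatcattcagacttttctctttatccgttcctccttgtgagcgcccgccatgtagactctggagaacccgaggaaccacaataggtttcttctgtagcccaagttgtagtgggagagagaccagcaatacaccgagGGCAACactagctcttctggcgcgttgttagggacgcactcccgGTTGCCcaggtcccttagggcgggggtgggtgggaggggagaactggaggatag
Tekt1: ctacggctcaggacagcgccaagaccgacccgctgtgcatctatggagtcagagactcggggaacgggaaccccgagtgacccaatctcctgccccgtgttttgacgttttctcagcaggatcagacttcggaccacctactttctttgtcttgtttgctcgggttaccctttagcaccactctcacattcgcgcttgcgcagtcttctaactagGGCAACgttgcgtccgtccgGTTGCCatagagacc
Iqcg: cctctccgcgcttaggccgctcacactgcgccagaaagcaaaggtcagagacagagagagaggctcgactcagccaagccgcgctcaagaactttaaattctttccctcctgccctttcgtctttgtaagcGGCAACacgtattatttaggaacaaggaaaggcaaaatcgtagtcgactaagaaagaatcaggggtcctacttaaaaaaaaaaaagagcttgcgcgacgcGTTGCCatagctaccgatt
Cfap44: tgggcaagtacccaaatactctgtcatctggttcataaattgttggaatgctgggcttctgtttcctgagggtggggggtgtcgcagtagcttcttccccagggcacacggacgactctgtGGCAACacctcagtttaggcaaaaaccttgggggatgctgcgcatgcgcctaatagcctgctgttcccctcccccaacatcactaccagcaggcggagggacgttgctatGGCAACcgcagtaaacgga
In these Gas8, Tekt1 and Iqcg promoters the cores lie on both strands, and in Cfap44 both read GGCAAC. The homeodomain motif TAATCC or its reverse complement GGATTA, a site of OTX factors, was present for 2 of 23 other choroid plexus genes (8.70%), for neither Aqp1 nor Kl, and for 7.21% of all genes. A match is a run of letters and was not read as a bound site.

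**Figure D1:**
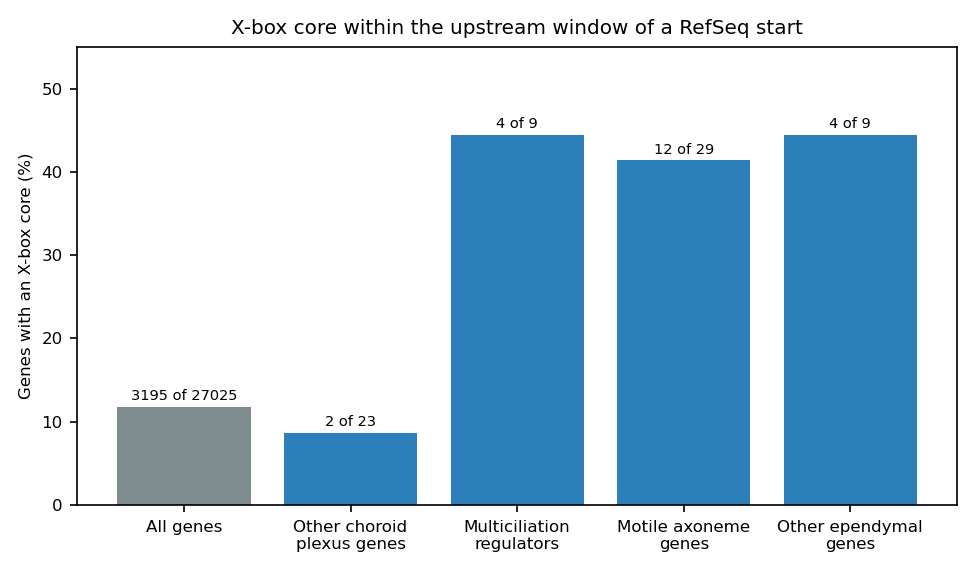
Share of genes (percent, vertical axis from 0) with at least 1 X-box core in the 250 bases before a RefSeq transcript start, for all genes and 4 lists. The bars of the 3 ciliary lists stand at 41.4% to 44.4%, above the 11.8% of all genes and the 8.70% of the other choroid plexus genes.

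The deposited values are group means, from which the reads of each library were recovered for 26248 genes. The libraries held 19711032 to 23954501 recovered reads. Within each group they carry the letters a to c in falling order of size factor, since the table does not tie them to sample numbers. A count of 0 was taken to allow up to 3 reads, a one-sided limit, and this limit and the two-sided interval given below cover counting error only. Lmx1b stood at 1257, 1401 and 1455 normalised counts (reads divided by the size factor) in the cKO libraries a to c and at 1368, 1352 and 1474 in the controls. The groups overlapped, so the Lmx1b level of whole midbrains does not check the genotype labels. cKO libraries stood apart in genes of other tissues. The summed level of 7 mesenchyme genes was 2051, 496 and 13481 normalised counts in cKO libraries a to c, against 502 to 609 in the controls. cKO replicate b was the library with the most reads of Rspo3 and Olig3, genes of the dorsal neural tube.

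Ttr, the defining transcript of choroid plexus epithelium (ENSMUSG00000061808, chr18:20665280-20674321, plus strand), was nearly absent. It had 6 reads in cKO replicate b, with a 95% exact Poisson interval of 2.20 to 13.1 reads, and 0 reads in the other 5 libraries. The mean was 2.11 normalised counts in the cKO and 0 in the controls. With reads in 1 library, no fold change is given, and the two-sided exact permutation test over libraries gave p = 1.0. Per kb of exon the mean level of Ttr was 0.891 normalised counts, at percentile 16.4 of all genes with an annotated length.

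Aqp1, the water channel of the apical choroid plexus membrane (ENSMUSG00000004655, chr6:55336432-55348555, plus strand), had 11, 19 and 112 reads in cKO libraries a to c and 11, 2 and 13 in control libraries a to c. In normalised counts these were 10.3, 20.1 and 121 against 9.73, 1.92 and 14.04. cKO replicate c alone held 66.7% of all Aqp1 reads, and cKO replicate a lay within the control range. The means were 50.5 ± 61.4 (SD, n = 3) in the cKO and 8.56 ± 6.14 (SD, n = 3) in the controls. The log2 fold change was 2.04 ± 1.02 (SE) with an unadjusted limma p of 0.0696, and the exact permutation test gave p = 0.2. Without cKO replicate c the log2 fold change was 1.07, and without control replicate b, the lowest library, it was 1.26.

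Clic6, an intracellular chloride channel protein (ENSMUSG00000022949, chr16:92485736-92541243, plus strand), had 3, 11 and 19 reads in cKO libraries a to c and 8, 4 and 4 reads in the control replicates. The normalised counts were 2.81, 11.6 and 20.6 in the cKO and 7.08, 3.84 and 4.32 in the controls, with means of 11.7 ± 8.88 and 5.08 ± 1.75 (SD, n = 3 each). cKO replicates b and c lay above the controls and cKO replicate a below them. The mean over all libraries was under 10, so that Clic6 was not in the fit across genes, and the exact permutation test gave p = 0.4. The order of the cKO libraries was the same for Aqp1 and Clic6.

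Folr1, the folate receptor that carries folate across the choroid plexus (ENSMUSG00000001827, chr7:101858331-101870788, minus strand), was higher in level than these and nearly even. It had 76.8, 85.6 and 87.7 normalised counts in cKO libraries a to c and 84.1, 96.1 and 110 in the controls. The highest library was 1.43 times the lowest. The means were 83.4 ± 5.76 in the cKO and 96.8 ± 13.1 in the controls (SD, n = 3 each), a log2 fold change of -0.20 ± 0.21 (SE) with an unadjusted limma p of 0.360. The groups overlapped.

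Kl encodes klotho, the co-receptor for FGF23 (ENSMUSG00000058488, chr5:150952607-150993817, plus strand). It stood at 56.2, 45.4 and 57.4 normalised counts in the cKO and at 38.0, 45.1 and 72.4 in the controls, whose range took in all 3 cKO libraries. The means were 53.0 ± 6.58 and 51.9 ± 18.1 (SD, n = 3 each). The log2 fold change was 0.11 ± 0.30 (SE), with an unadjusted limma p of 0.724, and its sign turned without control replicate a (-0.094).

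Foxj1 (ENSMUSG00000034227, chr11:116330704-116335399, minus strand), the regulator of motile cilia, was the most abundant of the 6 genes. It had 473, 534 and 609 normalised counts in cKO libraries a to c and 551, 553 and 672 in control libraries a to c. Each of the 6 libraries held 505 reads of it or more, and the highest normalised count was 1.42 times the lowest. The means of 539 ± 68.3 and 592 ± 69.0 (SD, n = 3 each) gave a log2 fold change of -0.14 ± 0.12 (SE), with an unadjusted limma p of 0.272, and the groups overlapped. With 1 library omitted it ranged from -0.23, without cKO replicate c, to -0.04, without cKO replicate a, and it was -0.05 without control replicate c. In these bulk libraries fewer cells of a type and less RNA per cell cannot be told apart.

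**Figure D2:**
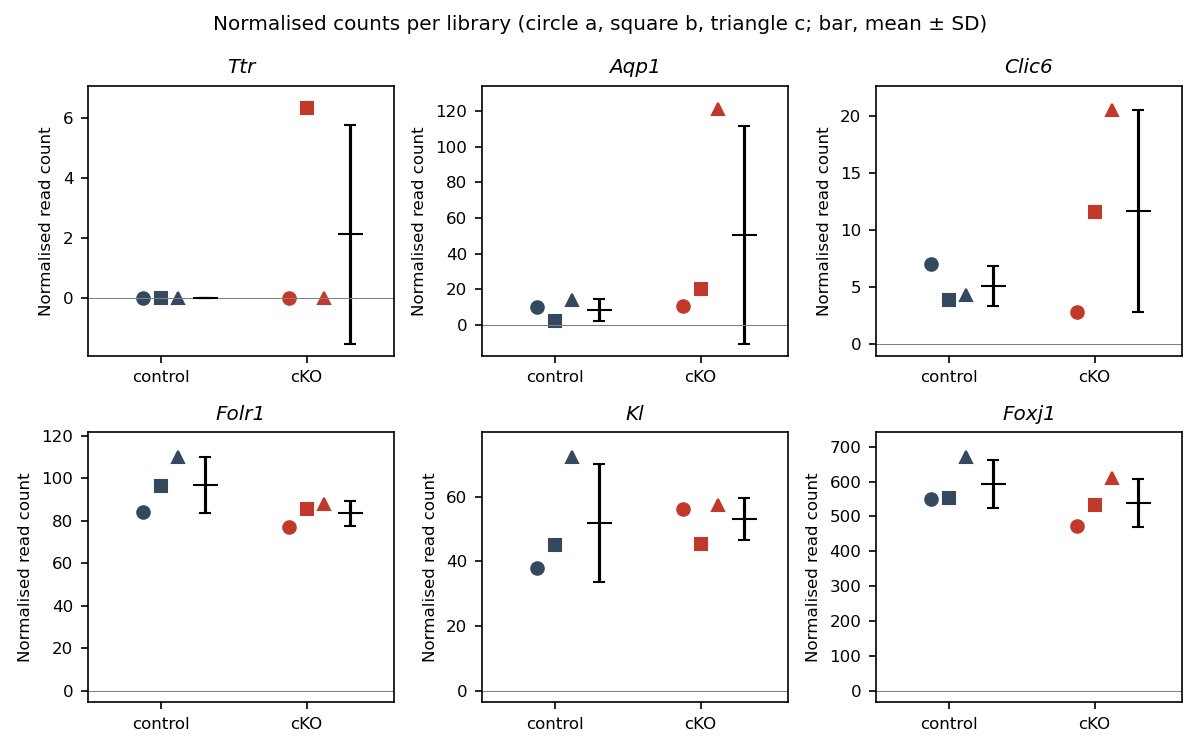
Normalised read counts (linear axes, each to its own scale) of the 6 genes in the 3 control and 3 cKO libraries, with points for libraries and bars for mean ± SD. The 6 Ttr reads lie in cKO replicate b and the high Aqp1 value of 121 in cKO replicate c, whereas for Folr1, Kl and Foxj1 the groups overlap.

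Per kb of exon the order of the mean levels was Foxj1 (216 normalised counts), Folr1 (39.2), Aqp1 (11.2), Kl (5.62), Clic6 (2.14) and Ttr (0.891). The coefficient of variation over the 6 libraries was 12.03% for Foxj1, 12.9% for Folr1, 23.3% for Kl, 80.8% for Clic6 and 153% for Aqp1. Neighbours in the order overlapped in their library values per kb, except Foxj1 and Folr1. Foxj1 stood at percentile 72.3 of all genes by level per kb and Folr1 at percentile 51.3.

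None of the 4 genes that entered the fit (Aqp1, Folr1, Kl and Foxj1) was called, and the adjusted limma p was 1.00 for each. Over the 16573 genes tested with limma, none (0%) had an adjusted p under 0.05, and limma-trend also called 0. An unadjusted p under 0.05 was found for 466 genes (2.81%). In the cKO 269 of them were lower (1.62%) and 197 were higher (1.19%). Groups that did not overlap were found for 0 of the 4 genes and for 7.7% of all genes tested.

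Of 28 other choroid plexus genes, 16 entered the fit. Kcnj13, a potassium channel, Slc13a4, a sulfate carrier, Tmem72 and Mfrp had 3 or fewer reads in every library. Mfrp shares 1589 exon bases with C1qtnf5 on the same strand, and Kcnj13 shares 623 with Gigyf2 on the opposite strand. The low counts of Mfrp and Kcnj13 can therefore depend on how reads of shared bases were assigned. The most abundant genes were Slc29a4, a monoamine and nucleoside transporter (3291 and 3340 normalised counts in cKO and control), Enpp2, which makes lysophosphatidic acid (1183 and 1295), and Trpm3, a cation channel (946 and 915). Neurons and other brain cells also express such transporters and channels. Of the 16 genes, 9 had a log2 fold change below 0 and 7 above, with a median of -0.02, beside 50.1% below 0 over all genes tested. Without cKO replicate a 12 of 16 lay below 0, with a median of -0.12, and without cKO replicate b the median was 0.03. With an unadjusted p under 0.05 there was 1 gene of 16 (2.81% of all genes), Rdh5, a retinol dehydrogenase. Its normalised counts were 45.9, 71.9 and 77.9 in cKO libraries a to c and 102, 116 and 95.05 in the controls, without overlap (log2 fold change -0.73 ± 0.25 SE, unadjusted limma p of 0.0130 and adjusted p of 1.00). Its exons share 720 bases with Bloc1s1 on the same strand, and its count depends on how reads of those bases were assigned. Without cKO replicate a the unadjusted limma p of Rdh5 was 0.0784. The coagulation factor gene F5 also had groups that did not overlap (7.50 to 13.0 normalised counts in cKO, 14.04 to 29.2 in control), which made 2 of 16 genes beside 7.7% of all genes. F5 was named after its values were seen.

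**Figure D3:**
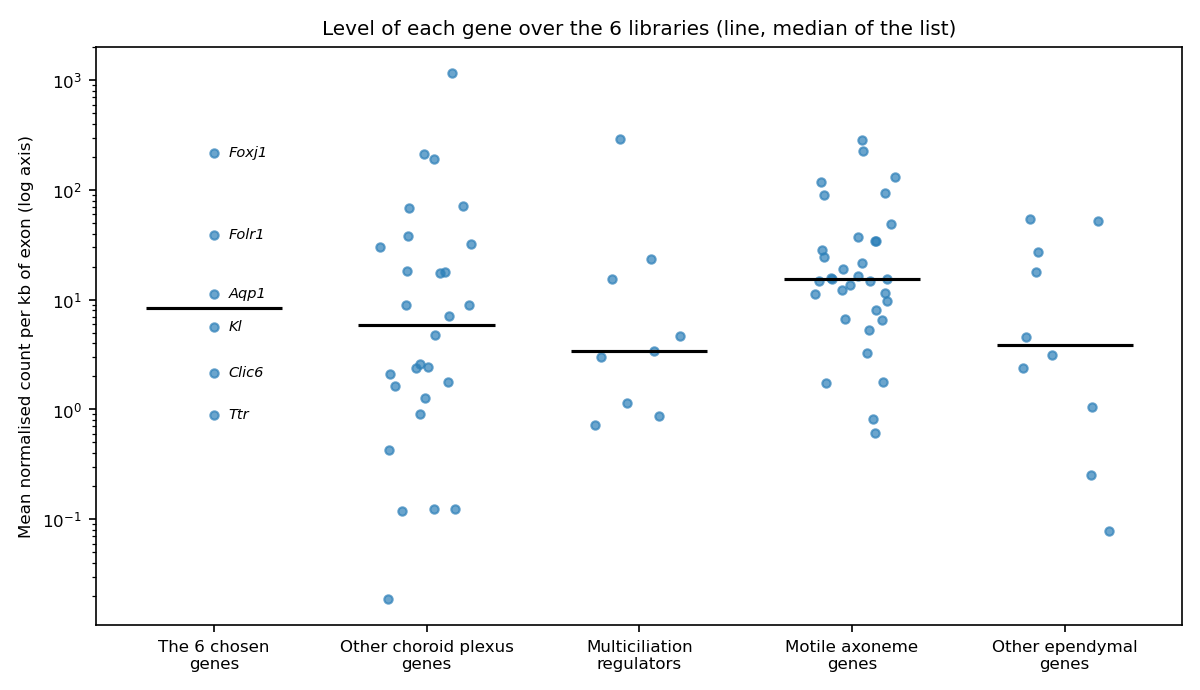
Mean normalised count per kb of exon (log axis) over the 6 libraries for each gene of 5 lists, with a line at the list median. Foxj1 lies at 216 and Ttr at 0.891, and the median is 15.5 for the motile axoneme genes and 5.93 for the other choroid plexus genes.

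Early regulators of the multiciliated programme were low. Mcidas, Gmnc and Ccno were each under 10 normalised counts in every library. The most abundant of the 9 regulators were Rfx3 (3267 in cKO and 3189 in control), Rfx2 (165 and 182) and Myb (135 and 141). Rfx3 had a log2 fold change of 0.03 ± 0.07 (SE). Of 5 tested regulators, 2 lay below 0 and 3 above, and 0 had an unadjusted p under 0.05. Without cKO replicate b 4 regulators were tested, and 2 of them lay below 0. Trp73, a p53 family factor of multiciliated cells and Cajal-Retzius neurons, had 66 of its reads (68.0%) in cKO replicate b, the library that held the 6 Ttr reads. Without that library Trp73 was under the minimum mean. Trp73 was named after its values were seen.

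Most genes of the motile axoneme had a log2 fold change below 0, though no gene of the list had an adjusted limma p under 0.05. Of 29 tested, 26 had a log2 fold change below 0 (50.1% of all genes tested), with a median of -0.23 beside -0.00016 over all genes. The sum over the 34 measured genes was 5577, 5191 and 5826 normalised counts in cKO libraries a to c and 5909, 6086 and 5980 in the controls. All 3 cKO sums were under the lowest control, beside 7.7% of all genes tested whose groups did not overlap in either direction. In the 6 fits with 1 library omitted, 21 to 26 genes lay below 0 and the median ranged from -0.31 to -0.18. Without cKO replicate c, the library richest in mesenchyme transcripts, 21 of 28 tested genes lay below 0.

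The 3 most abundant axoneme genes had log2 fold changes near 0, at -0.02 for Gas8, -0.05 for Ccdc39 and 0.08 for Ccdc40. Gas8, a subunit of the nexin-dynein regulatory complex, had 1132 and 1144 normalised counts in cKO and control. The products of Ccdc39 and Ccdc40 form the ruler that sets the spacing along the axoneme. Ccdc39 had 869 and 899 normalised counts in cKO and control, and Ccdc40 had 808 and 760. Ccdc39 shares 1256 exon bases with Ttc14 on the opposite strand, and the use of strand in the counting is not given in the sources used here. Pifo, a protein of the cilium base, had the only unadjusted p under 0.05 of the list, 1 of 29 genes beside 2.81% of all genes. It stood at 14.1, 4.23 and 5.41 normalised counts in cKO libraries a to c and at 11.5, 19.2 and 29.2 in the controls. The groups overlapped, and the log2 fold change was -1.30 ± 0.59 (SE, unadjusted limma p of 0.0493, and 0.0179 to 0.169 over fits with 1 library omitted). Non-overlapping groups were seen for Dnaaf3, an assembly factor of dynein arms (64.5 to 71.2 in cKO, 78.7 to 99.9 in control), and Cfap206 (22.7 to 35.6 and 42.1 to 50.4), or 2 of 29 genes beside 7.7% of all genes. These 2 genes were named after their values were seen.

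The 4 tested of 10 other ependymal genes were all below 0, with a median of -0.26 and none with an unadjusted p under 0.05. With 1 library omitted the median ranged from -0.52, without cKO replicate c, to -0.13, without control replicate c, and 3 or 4 genes lay below 0. The most abundant were 1110017D15Rik (70.0 and 78.9 normalised counts in cKO and control), Tm4sf1 (70.7 and 78.0) and Fam183b (26.2 and 35.3). Ccdc153 and Tmem212, late markers of mature ependyma, had at most 1 read in any library.

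**Figure D4:**
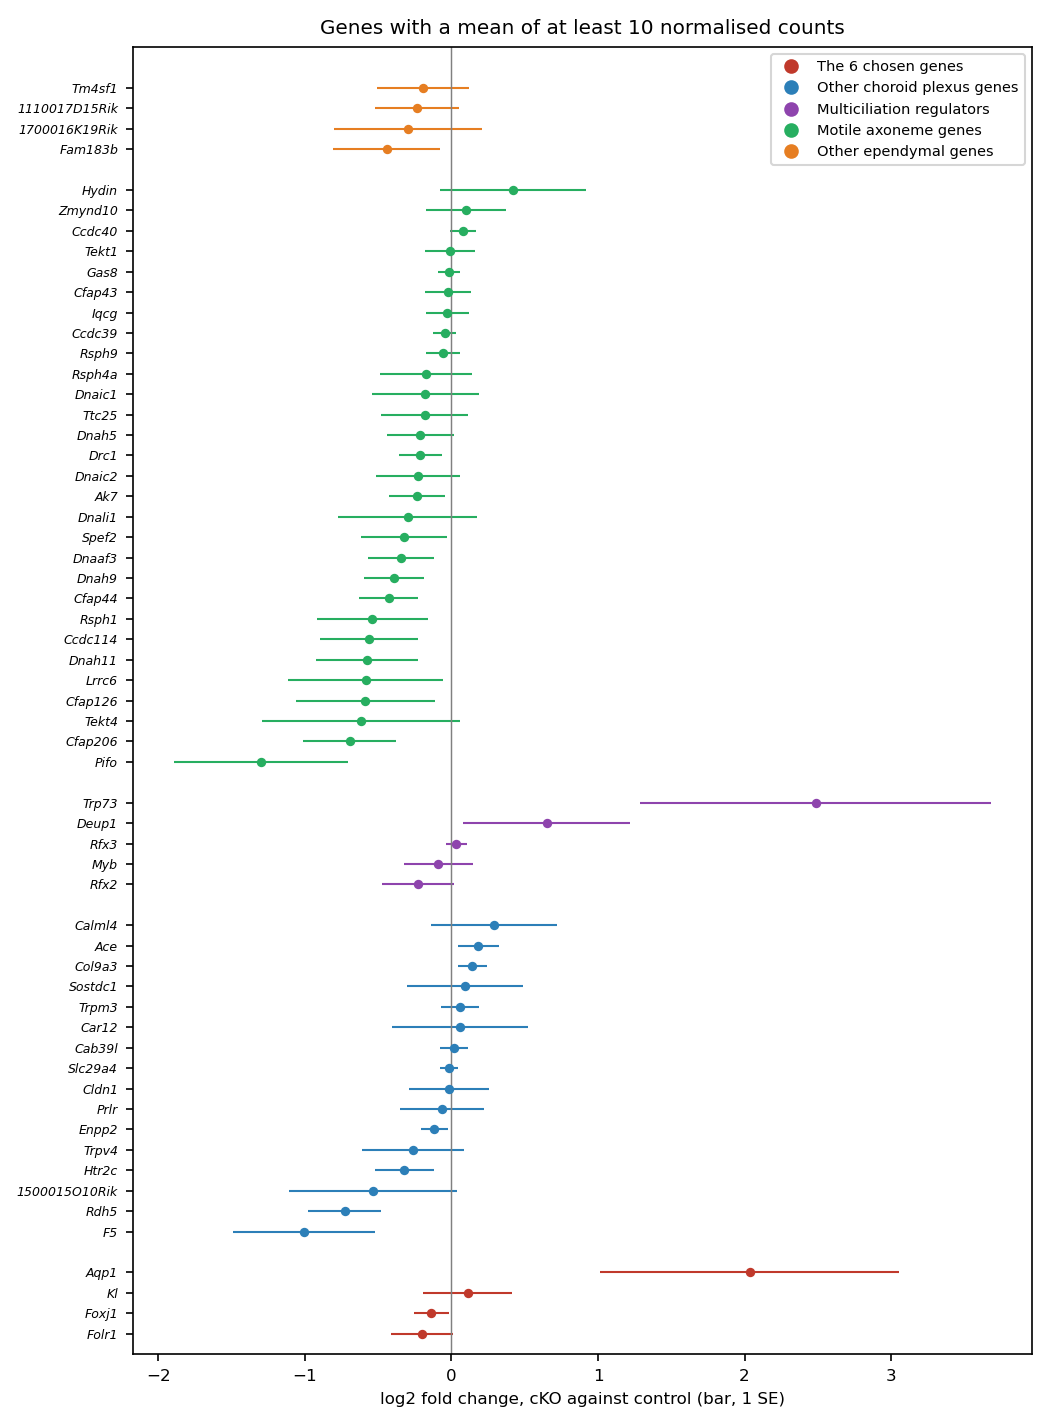
log2 fold change of the cKO against the control (horizontal axis; bars, 1 SE) for the tested genes of 5 lists. Of the motile axoneme genes 26 of 29 lie below 0, the 4 other ependymal genes lie below 0, and the other choroid plexus genes lie on both sides.

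Markers of neighbouring tissue were read beside these lists. Floor plate genes, which share cells with Foxj1 in the embryonic midbrain, were below 0 for 6 of 7 tested genes, with a median of -0.20. The median was -0.02 without control replicate c, where 4 of 7 genes lay below 0, and -0.29 without control replicate a. Their most abundant tested genes were Spon1 (4616 and 4746 normalised counts in cKO and control) and Foxa1 (1321 and 1394). An unadjusted limma p under 0.05 was found for 2 of the 7 genes, 1 in each direction, beside 2.81% of all genes. The summed floor plate level was 7630, 7694 and 9591 in the cKO and 7608, 7975 and 9830 in the controls, with overlap. Its part in the axoneme values was not tested. Of 9 tested genes of the roof plate and the subcommissural organ 6 were below 0, with a median of -0.09, and Lmx1a was the most abundant (1071 and 1134). The paper also places Lmx1a in the development of mesodiencephalic dopaminergic neurons, so its level is not that of the roof plate alone.

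Hindbrain Hox genes and Egr2 together had 1.08 to 15.9 normalised counts per library, Egr2 the most, and 4 of the 7 were at 3 or fewer reads in every library. Liver and yolk sac genes, which can accompany Ttr, summed to 10.6 to 41.2, and the highest library was cKO replicate b, where Apoa1 had 24.3 normalised counts and Alb 3.17. Apoa2, the 1 tested gene of the list, had 13.1 to 17.3 normalised counts in cKO and 6.19 to 11.5 in control, without overlap (log2 fold change 0.87, unadjusted limma p of 0.105), beside 7.7% of all genes. Alb was at 0 in the other 5 libraries. Pigment epithelium genes, another source of Ttr, summed to 50.6 to 69.2, mostly from Best1, and Rpe65 had at most 1 read in any library. Endothelial genes, which also carry Aqp1 outside the brain, summed to 4791 to 5454, Kdr the most abundant, and red cell genes, which express Aqp1 in their membrane, to 12142 to 17575, with Hbb-y, Hbb-bs and Hba-a1 the most abundant. Of the 6 endothelial genes 5 were above 0, with a median of 0.05. Of the 9 red cell genes 8 were above 0, with a median of 0.30, and 2 had an unadjusted p under 0.05 (2.81% of all genes), Hba-a1 and Hbb-bs, whose reads can be shared with near-identical globin copies. Otx2, a factor of fore- and midbrain and choroid plexus, was even at 1613 to 1863.

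The mesenchyme list moved with Aqp1 across the cKO libraries only in part. Its 7 genes were all above 0, with a median log2 fold change of 1.84, and 1 of them, Col3a1, had an unadjusted p under 0.05 (2.81% of all genes). Col1a1, the most abundant, had 532, 14.8 and 6097 normalised counts in cKO libraries a to c against 10.6 to 11.5 in the controls. Ibsp, a bone matrix gene, had 163 in cKO replicate c and at most 1.08 elsewhere. cKO replicate a, the second in mesenchyme level, lay within the control range of Aqp1, and cKO replicate b, whose mesenchyme sum of 496 was under the lowest control sum, had 20.1 normalised counts of Aqp1 against a control maximum of 14.04. In Col1a1, Col3a1 and Lum, 3 of the 7 genes, all 3 cKO libraries lay above the controls, cKO replicate b included, beside 7.7% of all genes with groups that did not overlap. The part of mesenchyme in the Aqp1 value was not tested.

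Likeness between genes was measured as the root mean square difference of log2(normalised count + 1) over the 6 libraries, after each gene was centred on its mean, among genes with a mean of at least 10. This is a description over 6 libraries, in which every gene shares the depth and the tissue make-up of each library. The 10 genes nearest to Ttr were Rspo3, Olig3, Gm42559, Gm29508, Hsd3b6, Rn7sk, Gm42969, Gm12905, Gm22027 and Eomes, from 0.31 for Rspo3 to 0.64 for Eomes. Each was highest in cKO replicate b, as the choice by likeness to Ttr entails. Gm29508 and Gm42969 reached the minimum mean only through that library. Rspo3, a Wnt agonist, had 158 normalised counts there and 29.0 to 40.0 in the other libraries. Olig3, a factor of dorsal progenitors, had 181 there and 15.2 to 43.4 elsewhere, and Eomes had 189 and 53.8 to 98.2. The likeness rests on 6 Ttr reads, and 0 of the 10 genes were also named with a pseudocount of 10 and 1 of 10 by Pearson correlation.

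The 5 genes nearest to Foxj1 were Spata24, Zfp112, Gm37303, Tmem38b and Plat, with differences of 0.04 to 0.05. All 5 were named again with a pseudocount of 10 and 0 of 5 by Pearson correlation. A search for Aqp1, added after its values were seen, gave Col8a2, Traf5, Alx4, Ccn4, Armh1, Col14a1, Lox, Scd4, Svep1 and Runx2 (0.70 to 0.86), of which 5 of 10 were named again with a pseudocount of 10 and 1 of 10 by Pearson correlation. The choice by likeness to a gene with this peak entails that each was highest in cKO replicate c. Alx4, Ccn4 and Scd4 reached the minimum mean only through that library. Col8a2 stood at 337 there against 18.3 to 47.5 normalised counts in the other libraries.

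**Figure D5:**
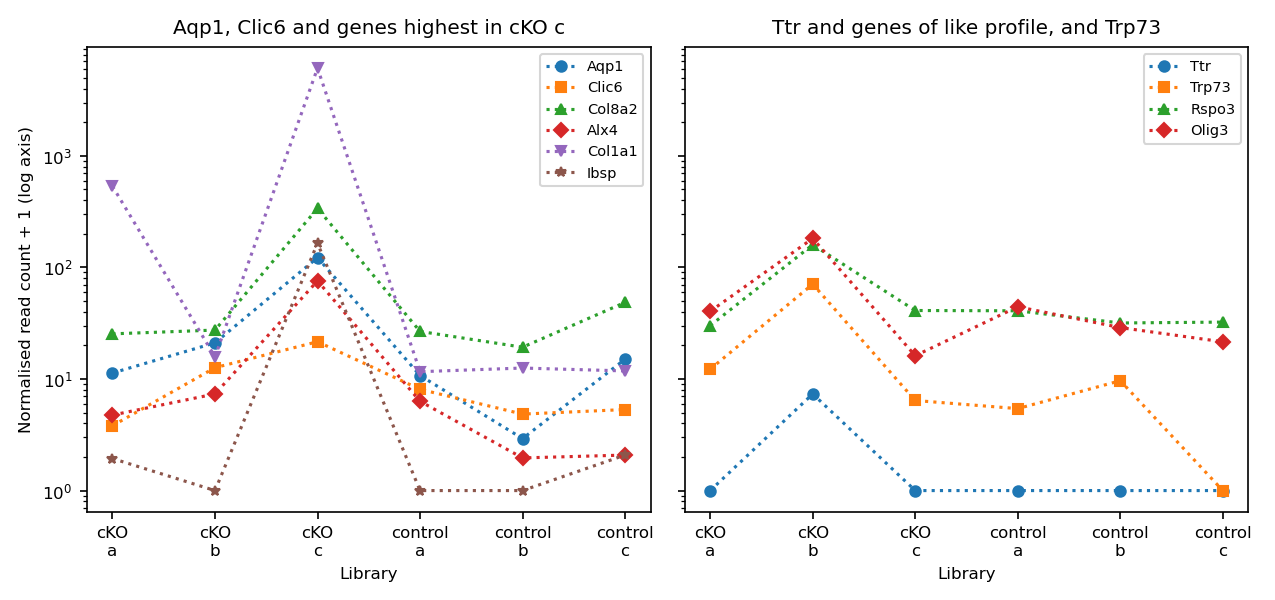
Normalised read count + 1 (log axis) in each library for Aqp1, Clic6, Col8a2 and Alx4 (near Aqp1 in likeness) and the mesenchyme genes Col1a1 and Ibsp (left) and for Ttr, Trp73, Rspo3 and Olig3 (right). All 6 genes on the left peak in cKO replicate c and the 4 on the right in cKO replicate b, which the choice by likeness entails for Col8a2, Alx4, Rspo3 and Olig3.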

How the data were processed

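RNA of E14.5 midbrains was made into mRNA libraries, which a service provider sequenced from both ends and mapped. Per the submitters' processing notes, TopHat 1.0.14, Bowtie2 2.1.0, HTSeq 0.6.1p1 and DESeq 1.10.1 were used on GRCm38.p4, whereas the methods text names DESeq2. The authors deposited, for each gene, the mean signal of each group in read counts scaled by library size factors. The columns with the authors' own fold changes and p-values were not used. Lines that name no gene (3, holding 31.8% of the mean counts) were left out.

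Whole reads per library were recovered from the deposited means as the whole numbers that give each printed mean, for sums of up to 30000 reads per group. A single answer was found for 26248 genes (97.8%, holding 66.4% of gene counts), and the other 604 exceeded the limit. Recovered libraries could not be tied to sample numbers.

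Genes with a mean of at least 10 normalised counts were tested with limma 3.58.1 (voom weights, recovered size factors, genotype as the term, no covariate) in R 4.3.3, with Benjamini-Hochberg adjustment over all 16573 genes and a threshold of 0.05. The script was tested on simulated data. Single genes were compared by a two-sided exact permutation test, whose smallest p with 3 against 3 libraries is 0.1. Positions come from GENCODE on GRCm38 and were found for 26703 genes. Genes named are the 6 genes, genes of the 4 choroid plexus and ciliary lists with an unadjusted p under 0.05, the 3 most abundant of each, and the nearest genes by likeness. Other genes of the lists, such as those at the floor, those with groups that did not overlap, the low regulators and the markers of other tissues, were named after their values were seen. Members and lists were chosen with earlier results of these data known, and no result on a list rests on a test of the list as a set. An exact permutation p of each list's sum was computed and is not used. Of the listed genes, 8 without a line were not analysed here (Sntn, 1700012B09Rik, Hoxb1, Hoxd3, Afp, Fgb, Tyr and Mlana). Python 3.11.15 was used for the remaining steps. The value of 1 listed gene is not reported here.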

Additional observations from a re-analysis of the deposited data

How the results depend on the processing

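Alternatives were no minimum mean, a minimum of 50, limma-trend, total count and upper quartile scaling, and each library left out. Aqp1, Folr1, Kl and Foxj1 had no adjusted p under 0.05 in any alternative that tested them (Aqp1 was not tested at a minimum of 50), and Ttr and Clic6 were fitted with no minimum mean alone, without a call. The log2 fold change of Kl was between -0.094, without control replicate a, and 0.35 when each library was left out, and it was -0.19 without cKO replicates a and c, a pair added after the data were seen. That of Aqp1 ranged from 1.07 to 2.82 when each library was left out. Its unadjusted p was 0.0365 with limma-trend and 0.0127 without cKO replicate a, and up to 0.236 without control replicate b. Pifo had an unadjusted p under 0.05 in 4 of 10 alternatives and Rdh5 in 10 of 11. Over all genes, 0 to 4 had an adjusted p under 0.05 when each library was left out. The 4 were found without control replicate a, 3 of them Y-linked (Kdm5d, Uty and Ddx3y), and the cause was not tested. The count at an unadjusted p under 0.05 was 968 with no minimum mean (521 lower and 447 higher), where more genes were tested. It ranged from 331 to 632 when each library was left out (211 to 368 lower and 120 to 264 higher, the 120 without control replicate c). The median of the axoneme genes ranged from -0.31, without cKO replicate c, to -0.18, and that of the regulators was 0.50 with no minimum mean, where all 9 entered. No paired analysis was possible because the deposited columns are group means: their headers number the libraries 1 to 3 in both groups, but the recovered libraries cannot be tied to these numbers. With 0 to 6 reads of Ttr and 3 to 19 of Clic6 per library, the depth gives these values little precision.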
